A study of Rattus norvegicus with 6 samples.

Results

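The messenger RNAs of apoptosis regulators, caspases and death receptors were followed in rat intestinal epithelial cells after depletion of Suz12. The group was set by a list of 58 symbols, which stand for 57 genes, and it was read from the probe sets that the array annotation assigns to exactly 1 of these symbols. Of the 57 genes, 53 had such a probe set (80 probe sets), among 14217 genes and 31042 probe sets on the array. Bax, Pmaip1, Cycs and Tnfrsf10b had none and were not analysed here. Of the 53 genes, 31 had 1 probe set and 22 had several, and the probe set with the highest mean over the 6 arrays stood for the gene.

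Each group had RNA of 3 independent experiments, ShControl in 1 group and ShSuz12 in the other. Both are populations of IEC-6, a non-tumorigenic rat line with the features of small intestinal crypt cells, grown in DMEM with 5% fetal bovine serum, infected with a lentivirus and selected with puromycin. ShControl cells carry a scrambled short hairpin RNA (shRNA), and ShSuz12 cells carry an shRNA against Suz12, a core subunit of the Polycomb repressive complex PRC2, which methylates lysine 27 of histone H3. Infection efficiency was put at 25%, and each group is 1 selected population. The sources used here do not give whether cells were confluent at RNA isolation. The shRNA is the only difference between the groups that the labels name, and its target within Suz12 is shown for that reason, in full and in lower case.
shRNA target in Suz12: gctgacaatcaaatgaatcat

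Apoptosis is carried out by caspases, proteases that are made as inactive precursors. In the mitochondrial pathway, BH3-only proteins sense stress and either bind pro-survival BCL2 proteins or engage the effectors Bak1 and Bax, after which cytochrome c leaves the mitochondria and joins Apaf1 in the apoptosome that activates caspase-9. In the receptor pathway, ligands of the TNF family bind death receptors such as Fas, whose adaptors recruit caspase-8. Several genes of both pathways are targets of the transcription factor p53, and shedding and renewal of the intestinal epithelium make cell death a routine event in that tissue.

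Values are log2 intensities, so a difference of 1 is 2-fold. A gene passed at an adjusted p under 0.05 in limma, with p adjusted over all probe sets of the array, and it was called where it passed and differed by at least 2-fold. The median of an array was 6.15 to 6.17 for ShControl and 6.26 to 6.27 for ShSuz12, and Pearson's r over probe sets, which are not independent replicates, was 0.997 to 0.998 within groups and 0.979 to 0.980 between them. ShControl replicate 2 had the highest 3′ over 5′ difference of the beta-actin control probe sets (1.08 on the log2 scale, against 0.60 to 0.89 on the other arrays), a sign of RNA quality. Suz12 had values of 8.45, 8.55 and 8.77 in ShControl and 5.82, 5.77 and 5.91 in ShSuz12 cells, a fall of 6.77-fold (adjusted p = 2.78e-07 in limma). Of the epithelial markers, Cdh1 (percentile 99.3 of the array in ShControl and 98.4 in ShSuz12 cells) and Krt8 were high, but Epcam (percentiles 5.92 and 6.54), Krt18 and Cldn4 lay near the lowest values in both groups.

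Among the apoptosis genes, the death-associated kinase gene Dapk1 and the p53 target Perp were the only called members, both higher in ShSuz12 cells, and changes elsewhere were small. In all, 15 of the 53 members rose, 11 fell and 27 did not pass. The members that rose were 28.3% of those measured and those that fell 20.8%, where 17.1% of all genes passed as higher and 23.3% as lower. With the 2-fold limit, 2 of the 53 members were higher, a share near the 3.82% of all genes. As lower, 0 members were called, where 0.422% of all genes were, too few for a count of 0 to set the members apart. That count of 0 in limma was also 0 at an unadjusted p under 0.05 and by the methods' t-test at 2-fold. The median log2 difference was 0.021 over the members and -0.053 over all genes, and the members ran from -0.47 (Bad) to 2.95 (Dapk1). The 3 ShSuz12 values lay wholly above the 3 ShControl values for 19 members and wholly below for 14, which is 62.3% of members, where the groups were apart in either direction for 55.7% of all genes.

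**Figure D1:**
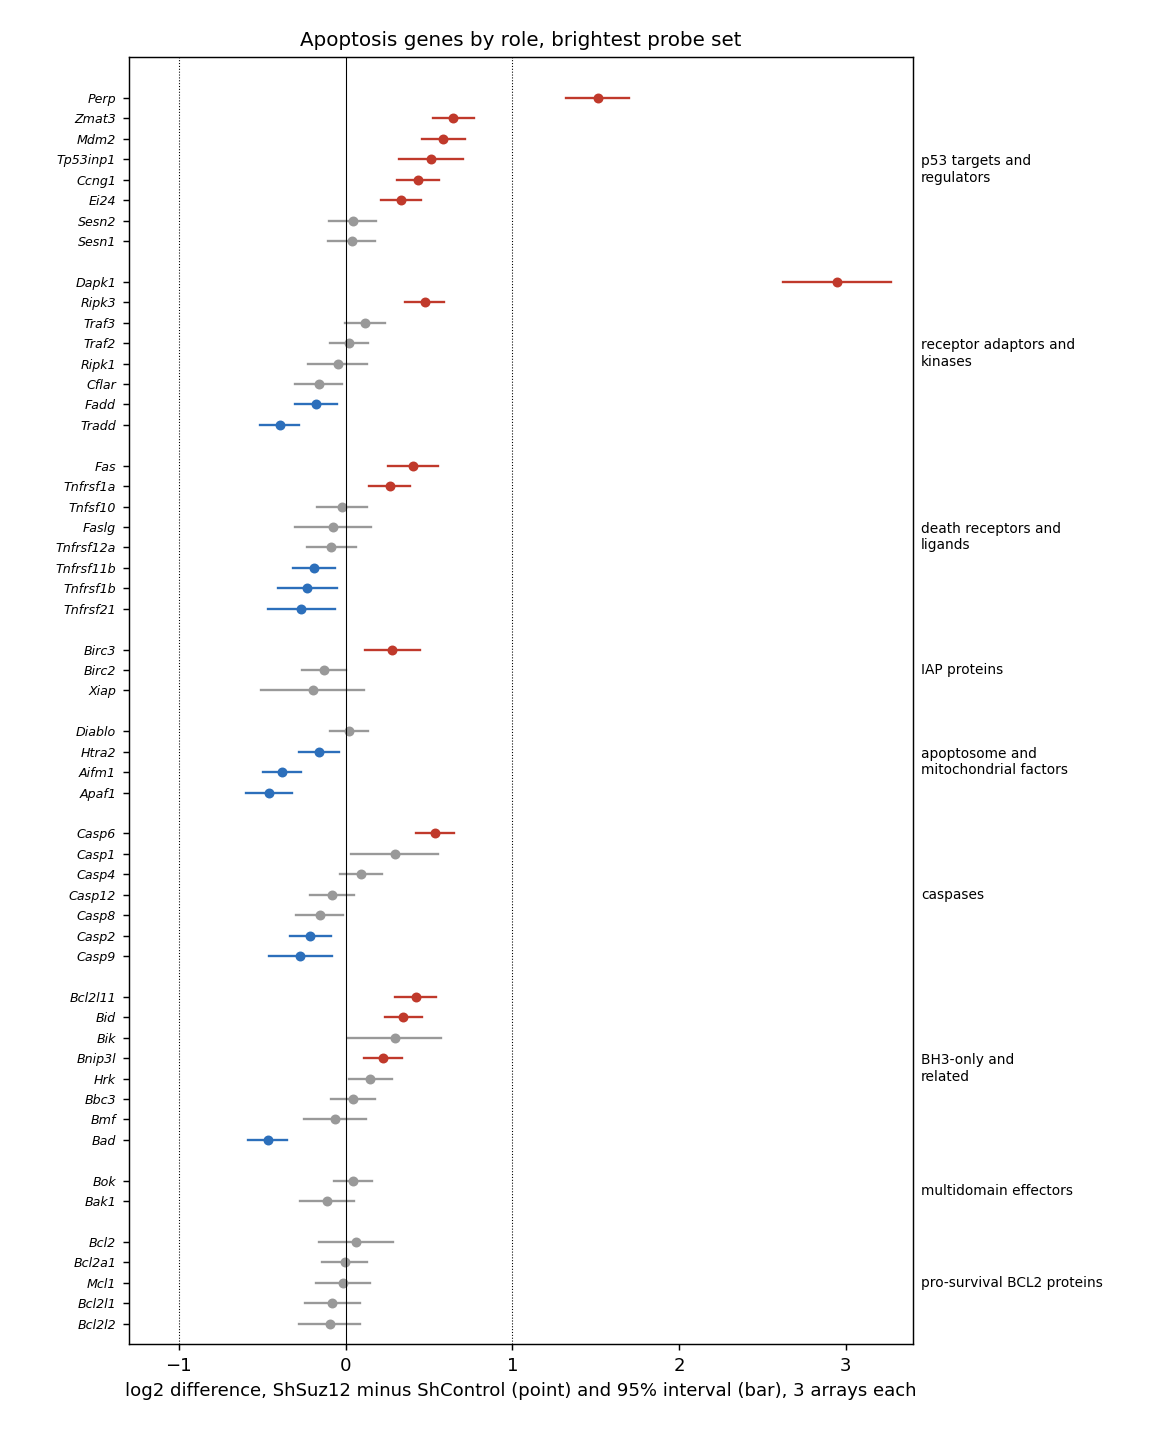
Each point is the log2 difference, ShSuz12 minus ShControl, of 1 of 53 apoptosis genes at its brightest probe set, with the 95% interval of limma as a bar (3 arrays a group); red marks genes that passed as higher, blue as lower, grey those that did not pass, and dotted lines mark 2-fold. Dapk1 (2.95) and Perp (1.51) stand beyond 2-fold, and all other members lie between -0.47 and 0.65.

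The number of members that fell rested on every array. It was 6, 6 and 7 without ShControl replicates 1, 2 and 3, and 4, 5 and 6 without ShSuz12 replicates 1, 2 and 3, against 11 with all arrays, while the number that rose was 14 or 15 in the same fits. These fits have fewer arrays, and over all genes 17.9% to 20.6% passed as lower in them, against 23.3% with all arrays. As higher, 14.9% to 16.8% of all genes passed, against 17.1%. Scaling moved the number of members that fell as well. With each array's median subtracted, 13 members rose and 17 fell, so that 43.3% of the members that passed were higher in place of 57.7%. Over all genes that share was 42.3% and became 24.5%. Adjusted p-values here measure the spread between experiments with 1 cell population per group, and an exact permutation test on 6 arrays could give no p below 0.1.

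Other gene groups moved on the same arrays. Of 19 measured epithelial markers, 4 rose, 2 fell and 13 did not pass, where 17.1% of all genes passed as higher and 23.3% as lower. On the log2 scale, the stem cell marker Lgr5 rose by 3.59, the intestinal transcription factor gene Cdx2 by 1.56, Krt19 by 1.19 and Tjp1 by 0.17, and Cdh1 and Krt8 fell by 0.76 and 0.41. The mean level of all 19 was 6.01 to 6.04 on ShControl arrays and 6.25 to 6.35 on ShSuz12 arrays, but their median log2 difference was only 7.4e-04. All 14 measured markers of proliferating cells fell, by a median of -0.39 on the log2 scale, and their mean level was 10.46 to 10.48 on ShControl arrays and 10.00 to 10.06 on ShSuz12 arrays. For 15 fibroblast and smooth muscle markers it was 8.17 to 8.21 on ShControl arrays and 8.94 to 8.96 on ShSuz12 arrays, with 8 higher and 2 lower. In bulk RNA, fewer cells of a type and less RNA per cell cannot be told apart. The part of these changes in the results for the apoptosis genes was not tested.

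Of the pro-survival BCL2 proteins, which hold the effectors in check, none of the 5 measured genes passed in limma at its brightest probe set (0 also at an unadjusted p under 0.05 and by the methods' t-test). Over all genes 8463 of 14217 did not pass, so a count of 0 among 5 does not set this group apart. Bcl2, the founding member, had values of 5.55, 5.53 and 5.72 in ShControl and 5.73, 5.80 and 5.47 in ShSuz12 cells. These groups overlapped, and the 95% interval of the log2 difference was -0.16 to 0.29. Mcl1, a short-lived pro-survival protein, differed by -0.015 on the log2 scale (95% interval -0.18 to 0.15), and Bcl2l1, which encodes BCL-XL, by -0.081 (-0.25 to 0.084). Bcl2l2 had a log2 difference of -0.096 and Bcl2a1 of -0.0059. At these brightest probe sets no interval of the 5 reached farther from zero than 0.29 (Bcl2). The dimmer probe sets of Bcl2l2, Bcl2l1 and Mcl1 all had lower means in ShSuz12 cells, with intervals that reached farther. The log2 difference was -0.37 for Bcl2l2 (95% interval -0.67 to -0.075, adjusted p = 0.0566 in limma), -0.22 for Mcl1 (-0.40 to -0.032, adjusted p = 0.0713), and -0.23 (-0.40 to -0.050, adjusted p = 0.0520) and -0.11 (-0.45 to 0.23) for the other 2 of Bcl2l1. None of these 4 passed, although 3 had an unadjusted p under 0.05. The effector Bak1, which opens the outer mitochondrial membrane, and its relative Bok did not pass either, with log2 differences of -0.11 (-0.27 to 0.05) and 0.046 (-0.068 to 0.16). They are also too few to be set apart from all genes.

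The BH3-only and related genes were divided. Of 8 measured, 3 rose (Bcl2l11, Bid and Bnip3l), 1 fell (Bad) and 4 did not pass. Over all genes 17.1% passed as higher and 23.3% as lower. The median log2 difference of these 8 was 0.19. Bad, which binds BCL-XL and BCL2 when it is not phosphorylated, had values of 9.97, 9.91 and 9.94 in ShControl and 9.50, 9.48 and 9.44 in ShSuz12 cells. All ShSuz12 values lay below all ShControl values, a fall of 1.38-fold and the largest fall of any member (log2 difference -0.47, standard error, SE, 0.05, adjusted p = 2.55e-04 in limma). Bcl2l11, which encodes BIM, a binder of all pro-survival BCL2 proteins, had values of 8.34, 8.36 and 8.28 in ShControl and 8.79, 8.73 and 8.73 in ShSuz12 cells. The groups were apart, with a log2 difference of 0.42 (SE 0.05, adjusted p = 5.32e-04 in limma). Its other probe sets, both dimmer, had log2 differences of -0.0065 (adjusted p = 0.950) and -0.19 (adjusted p = 0.108), and the mean of its 3 probe sets gave 0.074 (adjusted p = 0.292), so the rise rests on the brightest. Bid, the BH3-only protein that caspase-8 cleaves, rose by 0.35 on the log2 scale (adjusted p = 9.85e-04), and its dimmer probe set had a log2 difference of 0.31 (adjusted p = 0.132). Bnip3l, a mitochondrial receptor for mitophagy, rose at both probe sets, by 0.22 and 0.17 (adjusted p = 0.00941 and 0.0309). The p53 target Bbc3, which encodes PUMA, differed by 0.044 (95% interval -0.088 to 0.18), and Bmf, Hrk and Bik did not pass, with log2 differences of -0.063, 0.15 and 0.29.

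Caspases gave 1 rise and 2 falls among 7 measured genes, near the shares of all genes (17.1% higher and 23.3% lower). The median log2 difference of the caspases was -0.081. The falls numbered 0 without ShSuz12 replicate 1 or 2, 1 without ShSuz12 replicate 3 or ShControl replicate 1 or 3, and 2 without ShControl replicate 2. Casp6, an executioner caspase that cleaves lamins, had values of 7.53, 7.50 and 7.53 in ShControl and 8.08, 8.05 and 8.03 in ShSuz12 cells. Its groups were apart, with a rise of 1.45-fold (log2 difference 0.54, SE 0.05, adjusted p = 9.62e-05 in limma), and this was the largest difference among the caspases. Casp9, the initiator caspase of the apoptosome, had values of 7.06, 6.89 and 7.01 in ShControl and 6.61, 6.67 and 6.87 in ShSuz12 cells. The highest ShSuz12 value lay just below the lowest ShControl value, and the log2 difference was -0.27 (SE 0.08, adjusted p = 0.0368). Its dimmer probe sets had log2 differences of -0.10 and -0.14 that did not pass. Casp2, an initiator linked to DNA damage, fell by 0.21 on the log2 scale (adjusted p = 0.0177). Its dimmer probe set had a log2 difference of -0.27 that did not pass (adjusted p = 0.221 in limma), with overlapping groups. Casp8, the initiator of the receptor pathway, had a log2 difference of -0.16 at its brightest probe set (adjusted p = 0.0883) and of -0.24 at another (adjusted p = 0.0149), so whether it passed depended on the probe set. The inflammatory caspase genes Casp1 and Casp4 and the endoplasmic reticulum caspase gene Casp12 did not pass, with log2 differences of 0.29, 0.093 and -0.081.

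The apoptosome and mitochondrial factors were lower in 3 of 4 genes, where 23.3% of all genes were, with a median log2 difference of -0.27. All 4 lay above percentile 60 of the array. Among genes kept by a filter at that percentile, 40.8% passed as lower and 22.4% as higher. None rose, where 17.1% of all genes did (0 also at an unadjusted p under 0.05 in limma and by the methods' t-test). Apaf1, the scaffold of the apoptosome, had values of 8.55, 8.56 and 8.45 in ShControl and 8.11, 7.98 and 8.09 in ShSuz12 cells. These groups did not overlap, and Apaf1 fell by 0.46 on the log2 scale (SE 0.06, adjusted p = 6.72e-04 in limma) and by 0.32 at its other probe set (adjusted p = 0.00159). Aifm1, a flavoprotein of the intermembrane space that moves to the nucleus in cell death, fell by 0.38 (adjusted p = 6.83e-04), and Htra2, a mitochondrial protease that antagonizes inhibitors of apoptosis, fell by 0.16 (adjusted p = 0.0438). Diablo, another such antagonist, had a log2 difference of 0.021 (95% interval -0.094 to 0.14). Without any 1 of the 6 arrays, 2 of these 4 genes fell.

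Inhibitor of apoptosis (IAP) genes gave 1 rise among 3, where 17.1% of all genes passed as higher. Birc3, which encodes cIAP2, a ubiquitin ligase of TNF receptor complexes, had values of 5.42, 5.38 and 5.45 in ShControl and 5.78, 5.56 and 5.76 in ShSuz12 cells. The ShSuz12 values were all higher (log2 difference 0.28, SE 0.07, adjusted p = 0.0162 in limma), but Birc3 no longer passed without ShSuz12 replicate 1 or 3. Birc2, which encodes cIAP1, and Xiap, a direct caspase inhibitor, had log2 differences of -0.13 (adjusted p = 0.115) and -0.20 (adjusted p = 0.302), with the Xiap values spread from 8.35 to 8.92 among ShSuz12 samples. None fell in limma, adjusted or not, and 1 fell by the methods' t-test without adjustment.

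Death receptors and their ligands moved both ways. Of 8 measured, 2 rose, 3 fell and 3 did not pass, where 17.1% of all genes passed as higher and 23.3% as lower. The falls were not stable to the loss of any 1 array: 0 were left without ShControl replicate 2 or ShSuz12 replicate 1 and 1 without any other, while both rises passed in all 6 of these fits. Fas, the receptor for Fas ligand and a p53 target, had values of 7.74, 7.83 and 7.94 in ShControl and 8.29, 8.20 and 8.23 in ShSuz12 cells. Its groups were apart, with a rise of 0.40 on the log2 scale (SE 0.07, adjusted p = 0.00198 in limma). Another Fas probe set rose by 0.52 (adjusted p = 0.00102), and the dimmest had a log2 difference of 0.04 (adjusted p = 0.727). Tnfrsf1a, the main TNF receptor with a death domain, rose by 0.26 (adjusted p = 0.00659). Tnfrsf21, also called death receptor 6, had values of 8.13, 8.48 and 8.27 in ShControl and 8.02, 8.00 and 8.07 in ShSuz12 cells. The ShSuz12 values were all lower, ShControl replicate 2 was the highest, and the log2 difference was -0.27 (SE 0.09, adjusted p = 0.0481) and -0.10 at its other probe set (adjusted p = 0.249). Tnfrsf1b, the TNF receptor without a death domain, and Tnfrsf11b, a decoy receptor for TRAIL and RANKL, passed as lower by 0.23 and 0.19, but both lay below the 25th percentile of the array in both groups. The ligand genes Faslg and Tnfsf10, which encodes TRAIL, also lay below that percentile and did not pass, and Tnfrsf12a, the receptor for TWEAK, differed by -0.085.

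Receptor adaptors and kinases held the largest difference of all members. Of 8 measured, Dapk1 and Ripk3 rose, Tradd and Fadd fell and 4 did not pass. Over all genes 17.1% passed as higher and 23.3% as lower. Dapk1, a calmodulin-regulated serine/threonine kinase that promotes cell death and autophagy, had values of 4.67, 4.48 and 4.25 in ShControl and 7.48, 7.15 and 7.61 in ShSuz12 cells. No value of 1 group came within 2 log2 units of the other, and the mean moved from percentile 25.3 to 64.2 of the array. Dapk1 rose 7.70-fold (log2 difference 2.95, SE 0.14, adjusted p = 2.50e-06 in limma). Its other probe set had values of 4.39, 4.71 and 4.61 in ShControl and 6.16, 6.04 and 6.34 in ShSuz12 cells. This probe set rose 3.06-fold (log2 difference 1.61, adjusted p = 1.38e-05), so both gave a called rise from the lower part of the array.

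Ripk3, the kinase that starts necroptosis, rose by 0.47 on the log2 scale (adjusted p = 2.08e-04), whereas Ripk1, its partner kinase, had a log2 difference of -0.047 at its brightest probe set (95% interval -0.23 to 0.13) and of -0.22 at another (adjusted p = 0.0323). Tradd, the adaptor that binds the death domain of Tnfrsf1a, had values of 8.69, 8.68 and 8.70 in ShControl and 8.27, 8.34 and 8.28 in ShSuz12 cells. The groups were apart, and Tradd fell by 0.40 (SE 0.05, adjusted p = 5.64e-04 in limma). Fadd, the adaptor between Fas and caspase-8, fell by 0.18 (adjusted p = 0.0384). The falls among these adaptors and kinases numbered 1 without any array other than ShControl replicate 3, where they stayed at 2. Cflar, which encodes the caspase-8 inhibitor FLIP, had a log2 difference of -0.16 (adjusted p = 0.0724), and the ubiquitin ligases Traf2 and Traf3 differed by 0.021 and 0.12. The receptor gene Tnfrsf1a thus rose and its adaptor gene Tradd fell on the same arrays.

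The p53 targets and regulators had the largest share of rises. Of 8 measured, 6 rose and 2 did not pass, where 17.1% of all genes passed as higher and 23.3% as lower. The median log2 difference was 0.47 against -0.053 over all genes, and 6 rose without any 1 of the 6 arrays. The mean level of these 8 genes was 8.22 to 8.27 on ShControl arrays and 8.75 to 8.77 on ShSuz12 arrays. The share depends on the roles, which were set with earlier results known. Some p53 targets were counted in other roles. Among them, Fas rose by 0.40, Bbc3 did not pass (log2 difference 0.044) and Apaf1 fell (log2 difference -0.46). Perp, a tetraspan membrane protein of desmosomes that takes part in p53-dependent death, had values of 4.94, 4.89 and 4.95 in ShControl and 6.62, 6.32 and 6.37 in ShSuz12 cells. The groups were far apart, a rise of 2.85-fold (log2 difference 1.51, SE 0.08, adjusted p = 4.97e-06 in limma). At the other probe set, Perp had 4.75, 4.63 and 4.75 in ShControl and 6.58, 6.52 and 6.55 in ShSuz12 cells, a rise of 3.58-fold (adjusted p = 2.38e-07). The study drew its list of genes induced more than 2-fold from these same arrays. Perp and the other members read here are thus not independent evidence of the direction of their group.

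The other rises of that group were under 2-fold. Zmat3, an RNA-binding zinc finger protein, rose by 0.65 on the log2 scale (SE 0.05, adjusted p = 4.76e-05 in limma). Mdm2, the ubiquitin ligase that degrades p53 and is itself induced by it, rose at all 3 probe sets, by 0.59, 0.39 and 0.43 (adjusted p = 1.23e-04, 0.00333 and 0.0338). Tp53inp1, a cofactor of p53 phosphorylation and autophagy, rose by 0.51, the cyclin gene Ccng1 by 0.43 and Ei24, an endoplasmic reticulum protein of autophagy, by 0.33. Sesn1 and Sesn2, stress sensors that inhibit mTORC1, differed by 0.036 and 0.043 and did not pass, and with array medians subtracted both turned to small negative values (-0.065 and -0.058).

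**Figure D2:**
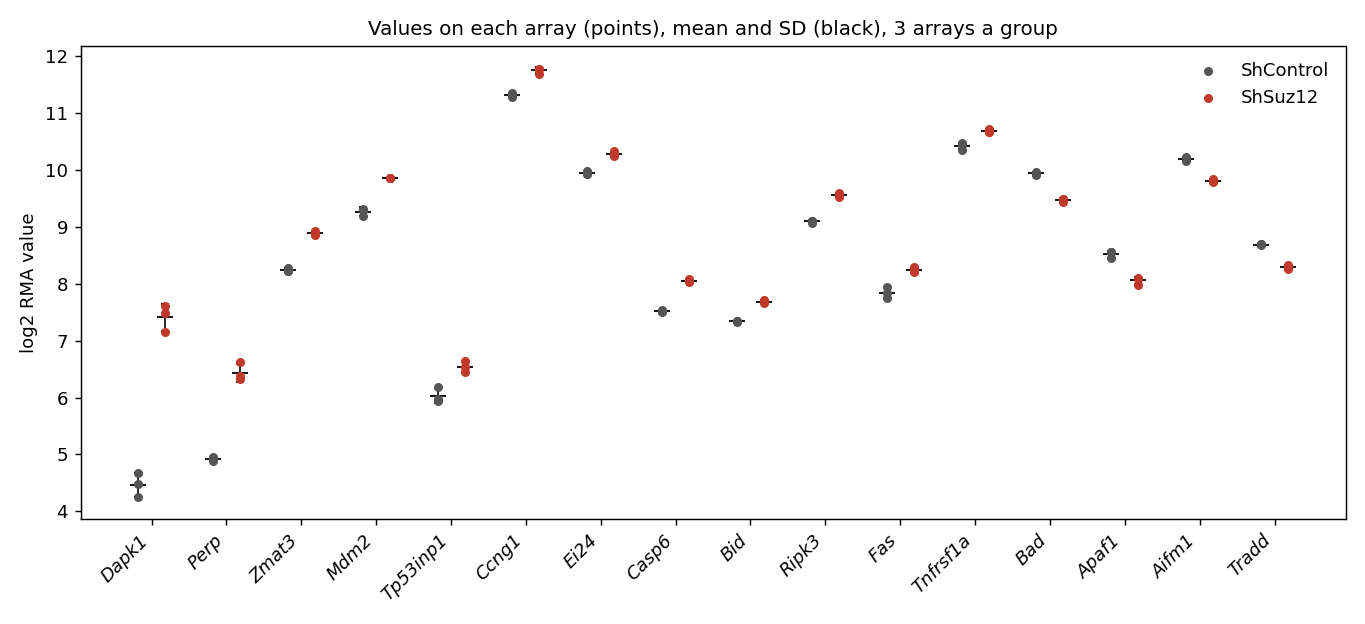
Log2 values on the 3 ShControl (grey) and 3 ShSuz12 (red) arrays, with mean and SD in black, for the 16 members that passed in every alternative that gave them a value (12 higher, 4 lower). The groups are apart for each gene, which the choice of genes favours, and by the most for Dapk1 and Perp. Levels of different genes on the vertical axis cannot be compared because each probe set responds differently.

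The wider p53 pathway was less uniform. Of 37 other p53 pathway genes, 30 were measured. Of these, 12 rose and 5 fell, where 17.1% of all genes passed as higher and 23.3% as lower. The median log2 difference of the 30 genes was 0.068. Tp53i11, a p53-inducible gene, was the only one called, with a log2 difference of 1.20 (SE 0.09, adjusted p = 3.47e-05 in limma). It is also in the study's own list of genes induced more than 2-fold on these arrays. Further rises, chosen for mention after their values were seen, were those of the kinase gene Plk2 (0.83), the stress gene Gadd45a (0.59), the p53 inhibitor gene Mdm4 (0.59) and Cdkn1a, which encodes the cell cycle inhibitor p21 (0.51). The dimmer probe sets of Mdm4 and Cdkn1a did not pass, with log2 differences of 0.067 and 0.37 (adjusted p = 0.532 and 0.0768 in limma). Siva1, a death domain protein and p53 target, fell by 0.56 (adjusted p = 9.09e-05), but its dimmer probe set did not pass (-0.10, adjusted p = 0.470). The number of falls moved with the arrays and was 2 or 3 of 30 without any 1 of the 6.

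**Figure D3:**
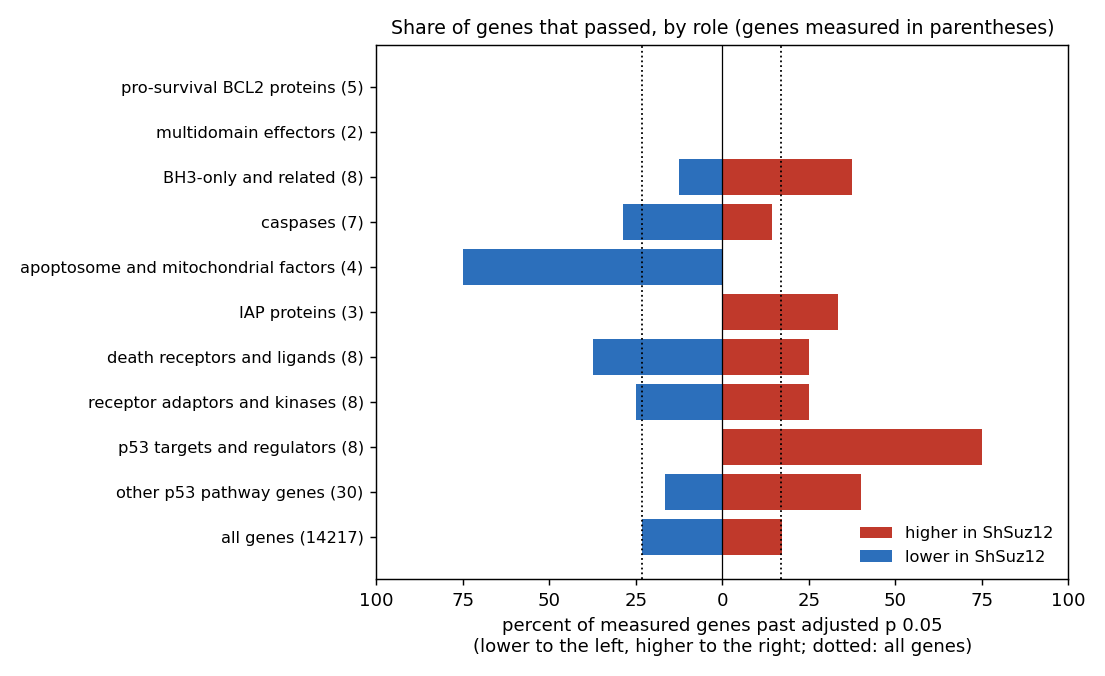
Percent of measured genes in each role that passed at an adjusted p under 0.05 in limma, higher in ShSuz12 cells to the right (red) and lower to the left (blue), with the number of genes in parentheses and dotted lines at the shares of all 14217 genes (17.1% higher and 23.3% lower). The role of p53 targets and regulators lies to the right only (6 of 8), the apoptosome and mitochondrial factors to the left only (3 of 4). The pro-survival genes and multidomain effectors (Bak1 and Bok) have no bar.

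Of all 135 other pathway genes, p53 genes included, 107 were measured. Among these, 19 rose, 32 fell and 56 did not pass, with a median log2 difference of -0.049, where 17.1% of all genes passed as higher and 23.3% as lower. The falls numbered 20 without ShSuz12 replicate 2 and 23 to 28 without any other array, and the rises 16 to 19. With the 2-fold limit 2 of the 107 were higher, where 3.82% of all genes were. By limma 0 were lower (0 also at an unadjusted p and by the methods' t-test), where 0.422% of all genes were. The second called gene was Tnfaip3, which encodes A20, a ubiquitin-editing inhibitor of TNF signalling, with 5.39, 5.53 and 5.38 in ShControl and 6.67, 6.34 and 6.65 in ShSuz12 cells. It rose by 1.12 on the log2 scale (adjusted p = 6.74e-05 in limma). Among 7 other caspase and nuclease genes, 4 fell and none rose, and among 19 relatives and partners of the BCL2 family 7 fell and 1 rose, to be read against the same shares of all genes. Without any 1 array these falls numbered 3 or 4 of 7 and 5 to 7 of 19, and the single BCL2 family rise ran from 0 without ShSuz12 replicate 1 to 2 without ShSuz12 replicate 2. Named after their values were seen, Gsdmd, the pore-forming substrate of inflammatory caspases, fell by 0.53, Casp8ap2, a caspase-8 binding protein, by 0.51 and Birc5, which encodes survivin, an IAP of dividing cells, by 0.48. Of 20 other TNF superfamily genes, 2 rose, Ngfr by 0.70 and Tnfsf9 by 0.69, 2 fell and 16 did not pass. Dapk2, the relative of Dapk1, fell by 0.46 (adjusted p = 3.92e-04), in the direction opposite to Dapk1.

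Because PRC2 often occupies promoters rich in CG dinucleotides, the promoter sequences of the called members are shown, from RefSeq on build GRCr8, from 250 bases before to 50 after the gene's start, 5′ to 3′ on the gene's strand with each CG in capitals. They lie at chr17:4096532-4096831 on the minus strand (Dapk1) and at chr1:15361534-15361833 on the plus strand (Perp).
Dapk1: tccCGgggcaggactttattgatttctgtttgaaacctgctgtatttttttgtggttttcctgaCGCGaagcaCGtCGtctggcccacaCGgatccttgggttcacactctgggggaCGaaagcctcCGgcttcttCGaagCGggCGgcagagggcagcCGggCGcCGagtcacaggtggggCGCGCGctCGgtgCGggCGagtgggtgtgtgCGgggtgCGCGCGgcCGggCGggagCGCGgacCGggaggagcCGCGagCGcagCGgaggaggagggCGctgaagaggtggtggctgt
Perp: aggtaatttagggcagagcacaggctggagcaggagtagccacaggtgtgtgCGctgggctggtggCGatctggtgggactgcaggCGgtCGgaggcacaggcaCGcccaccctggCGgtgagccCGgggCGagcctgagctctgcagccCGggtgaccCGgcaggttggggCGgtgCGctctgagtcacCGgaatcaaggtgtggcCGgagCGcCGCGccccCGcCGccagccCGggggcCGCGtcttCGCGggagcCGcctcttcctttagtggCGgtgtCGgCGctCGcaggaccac
Dapk1 held 34 CG (percentile 87.5 among 11700 promoters of measured genes) and Perp 29 (percentile 78.4). A promoter was matched for 40 of the 53 members, with a median of 18 CG against 19 over promoters of measured genes, and a range from 2 (Ripk3) to 57 (Traf3). Both called promoters were thus on the CG-rich side, but so were those of members that did not pass, such as Traf3. The GC box, GGGCGG on either strand, was found in 29 of the 40 (72.5%), against 57.5% of promoters of measured genes.

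Promoters were also searched for the p53 decamer, only a part of a full p53 site, so a match alone does not show one. The decamer is its own reverse complement, so that both strands are covered and a match may share bases with a GC box. It occurred in 4 of the 40 member promoters (10%) and in 6.80% of promoters of measured genes. The 4 windows are shown because 3 of them belong to the 6 p53 targets and regulators with a promoter, with the decamer in capitals.
Cflar: tatgttttcaAGACAAGTTTtccctgtgtg
Sesn1: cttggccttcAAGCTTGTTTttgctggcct
Ccng1: agacctgcccGGGCAAGCCTtggcattgaa
Ei24: cgtgcggcccGGGCATGCCCagtgtgggcg
They lie at chr9:67679416-67679445 (plus strand), chr20:46948537-46948566 (plus), chr10:25685089-25685118 (minus) and chr8:44699431-44699460 (minus). Of these genes Ccng1 and Ei24 rose and Cflar and Sesn1 did not pass. The promoters of Perp and Mdm2 held no match in this window, which says only that these letters are not there, and p53 sites can lie outside it.

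Across the alternatives, 16 of the 26 members that passed did so in each of the up to 14 alternatives with an adjusted p that gave them a value: 12 that rose and 4 that fell (Bad, Apaf1, Aifm1 and Tradd). Bcl2l11, Bnip3l and Birc3 lost their rise in at least 1, and Casp2, Casp9, Htra2, Tnfrsf1b, Tnfrsf11b, Tnfrsf21 and Fadd their fall. Dapk1 ranged from 2.28 to 3.08 on the log2 scale and Perp from 1.41 to 1.68, beyond 2-fold wherever they gave a value. A filter at percentile 60 of the array removed Perp. Dapk1 passed both filters, and Perp the one at percentile 40, through the ShSuz12 arrays alone, so these filters are no check of the rise.

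**Figure D4:**
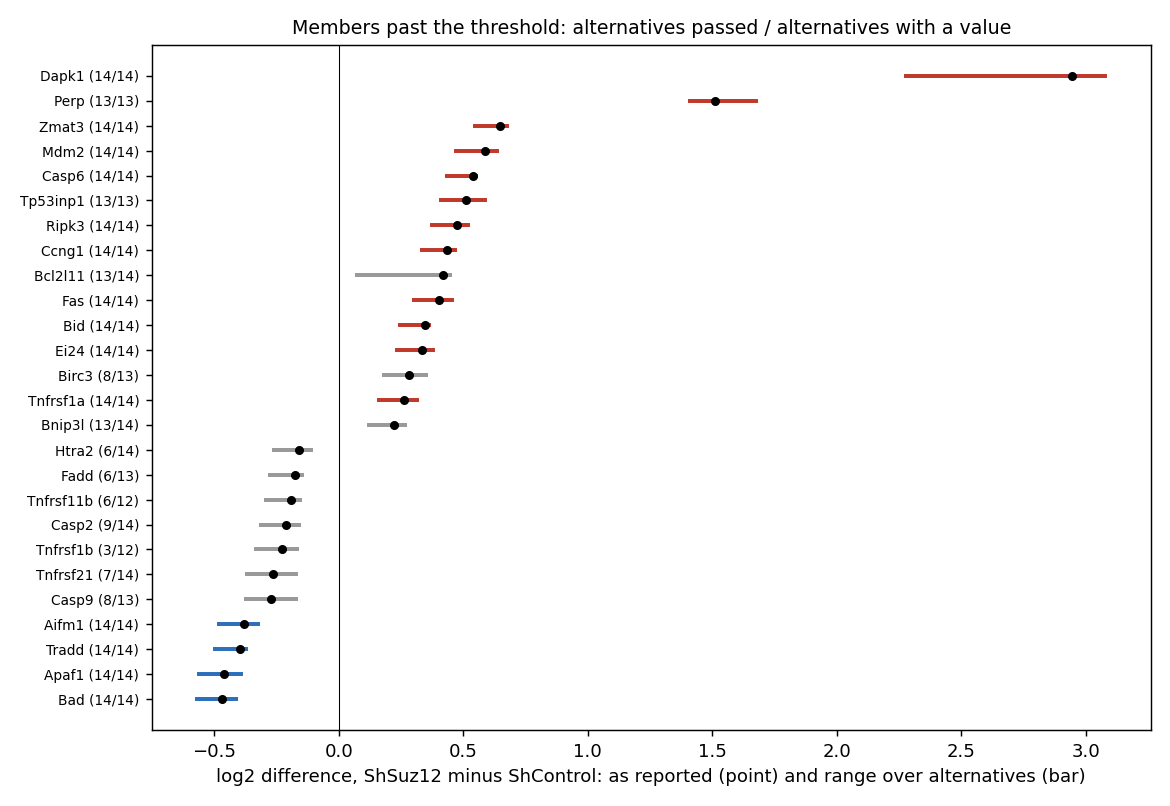
For each of the 26 members that passed, the point is the reported log2 difference (ShSuz12 minus ShControl) and the bar its range over the alternatives, with the number of alternatives in which it passed over those that gave a value; red and blue bars passed in all, grey bars did not. The falls of Bad, Apaf1, Aifm1 and Tradd stay past the threshold, and no bar crosses zero.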

How the data were processed

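Expression was measured on 6 Affymetrix whole-genome rat arrays. Per the study's methods, the authors ran the robust multi-array average (RMA) in FlexArray. It corrects background, normalizes between arrays and summarizes each probe set as 1 log2 value, and no version of RMA is stated. From the deposited log2 values, groups were compared by limma 3.58.1 (R 4.3.3, lmFit with eBayes, two-sided) at 31042 probe sets, with Benjamini-Hochberg adjustment over all of them. A further 57 control probe sets were left out. The number of arrays limits the precision. Differences are relative to that normalization, since no outside standard was used.

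Gene symbols of the platform annotation were updated through the gene table of GRCr8, with 0 changes. Exactly 1 symbol was listed for 20826 probe sets, several for 436, and 9780 were not listed and stay unnamed. The members, roles and the list of other pathway genes were chosen with earlier results of these data known. Values on every array are given for called members, for the largest rise and fall that passed in each role, and for members whose probe sets disagreed on a call or passed in opposite directions, of which there were none. Bcl2 and the called pathway gene Tnfaip3 were added, and other members are given by their log2 difference. The fit was tested on simulated data. Alternatives were the methods' Student test with and without adjustment, filters at percentiles 40 and 60, subtraction of array medians, quantile normalization run again, robust eBayes with an intensity trend, the replicate block, all probe sets of a gene averaged, a 1.5-fold limit, limma without adjustment (added after the data were seen) and leaving out each array. Promoters came from RefSeq tables for GRCr8, matched by gene ID. Scanner files and present calls were not used here.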

Additional observations from a re-analysis of the deposited data

How the results depend on the processing

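Of the counts, those of members at least 2-fold higher (2) became 1 above percentile 60 of the array and 4 at a 1.5-fold limit, and for other pathway genes (2) they became 0 and 9. The number of members that fell (11) was 17 with array medians subtracted, which moved the median log2 difference of all genes by -0.10, and ran from 4 to 7 when 1 array was left out. Over all genes the share that passed as lower was 23.3%. It became 41.7% with medians subtracted and 17.9% to 20.6% with 1 array left out. Deviations of same-numbered arrays showed no shared effect (correlations of 0.017, -0.042 and -0.064), which cannot show whether the samples were paired. With the replicate number as a block 6 members fell and 15 rose. Signs turned for 13 genes, none of which had passed. With medians subtracted the log2 differences became -0.038 (Bcl2), -0.055 (Bok), -0.057 (Bbc3), -0.0077 (Casp4), -0.0798 (Diablo), -0.0800 (Traf2), -0.065 (Sesn1) and -0.058 (Sesn2). A second quantile normalization gave -0.027 (Bcl2), 0.035 (Mcl1) and -0.0095 (Traf2), and the mean of probe sets gave -0.021 for Bok. With 1 array left out, values ran from -0.00218 to 0.16 for Bcl2, from -0.064 to 0.052 for Mcl1, from -0.035 to 0.031 for Bcl2a1, from -0.14 to 0.046 for Faslg, from -0.064 to 0.025 for Tnfsf10, from -0.089 to 0.035 for Ripk1 and from -0.0086 to 0.070 for Sesn1. In the role of p53 targets and regulators, 4 rose above percentile 60, where Perp and Tp53inp1 were filtered out, and 6 in every other alternative. The cause of these changes was not tested. Signal over background limits Bik, Casp1, Faslg, Tnfrsf1b, Tnfrsf11b and Tnfsf10, which lay below the 25th percentile of the array in both groups.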
